A study of Mus musculus with 16 samples.

Results

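The oligodendrocyte lineage transcription factors described here are Olig1, Olig2, Sox10, Sox8, Nkx2-2, Nkx6-2, Myrf, Zfp488 and Tcf7l2. They were followed in the corpus callosum of mice fed cuprizone (CPZ) and of mice returned to regular diet. All probes whose accession on the array maps to 1 of these 9 genes were taken, which gave 14 of the 41174 probes for 8 genes. Zfp488, a zinc finger protein that works with Olig2, had no probe matched to its name and has no value here.

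Oligodendrocytes arise from proliferating precursors and wrap axons in myelin, and the corpus callosum is the large white matter tract in which they are dense. Olig1 and Olig2 are basic helix-loop-helix factors, of which Olig2 sets the lineage up and Olig1 acts later in maturation and repair. Sox10 and its relative Sox8 are HMG-box factors of the SoxE group, and Sox10 switches on myelin genes together with Myrf, a membrane-bound factor that cleaves itself and is made as precursors differentiate. Nkx2-2 and Nkx6-2 are homeodomain factors, and Tcf7l2 is the HMG-box effector of the Wnt/β-catenin pathway that appears in differentiating oligodendrocytes.

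CPZ binds copper, and as a feed additive it is a standard way to lose and, after its withdrawal, regain callosal myelin in mice. The mice were male C57BL/6 animals of 7 to 8 weeks, and the controls were matched in age and sex to the group on 4 weeks of CPZ. RNA punched or cut out of the corpus callosum was hybridised to single-colour Agilent whole-genome arrays. There were 3 arrays of untreated mice on normal diet, 3 from a 2-week CPZ diet, 4 from a 4-week CPZ diet, and 6 of mice that had 4 weeks of CPZ followed by regular diet. The chow held 0.2% CPZ by the methods and 0.2 to 0.4% by the labels. The methods give 2 days and 2 weeks of regular diet, but no label ties an array to either time, so these 6 arrays mix both. The methods give a range of mice for each condition that covers the number of arrays, but neither they nor the labels tie each array to 1 mouse, so the spread between arrays may in part be technical.

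The scanner files and the authors' processed table disagreed on the sample of 14 of the 16 arrays, and for 13 of these on the group. Arrays were assigned through the processed table, in which the median of the 3 untreated columns was 0 for 100% of probes. Each column matched its array with r of at least 0.999 across probes and the next best array with at most 0.850. All directions given here rest on this choice. With the assignment recorded for the scanner files the median difference of the 8 genes at 2 weeks of CPZ was 0.42 in place of −0.96 on the log2 scale. Also, untreated array 1 and arrays 2 and 3 of 4 weeks of CPZ stood apart from the rest. These 3 arrays had 57.3 to 60.3% of probes well above background, against 64.6 to 72.2% on the other 13, and their deviations from the probe means correlated with each other at r of 0.79 to 0.83 and with the other arrays at −0.66 to 0.24. Values without them are given beside the estimates that turn on them.

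The promoter windows of the measured members with an entry are shown first, as the DNA next to which these factors are transcribed. Each window is the 250 bases before an annotated start from RefSeq on GRCm38.p6, written 5′ to 3′ on the gene's strand. The Nkx2-2 window lies inside the annotated span of its gene, so it precedes an inner start and not the outermost one. Capitals mark the E-box CANNTG, the core sequence of basic helix-loop-helix factors such as Olig1 and Olig2, and the SOX-type sequences ACAATG and ACAAAG, searched on both strands. No entry was found among the promoter windows for Olig1, Sox10 and Myrf, although the positions of these genes are annotated.
Sox8, chr17:25570687-25570936, minus strand: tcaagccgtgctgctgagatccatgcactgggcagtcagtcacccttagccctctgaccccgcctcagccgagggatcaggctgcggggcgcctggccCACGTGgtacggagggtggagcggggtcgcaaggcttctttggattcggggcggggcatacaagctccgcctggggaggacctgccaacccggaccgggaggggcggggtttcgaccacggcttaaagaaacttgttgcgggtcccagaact
Nkx6-2, chr7:139582798-139583047, minus strand: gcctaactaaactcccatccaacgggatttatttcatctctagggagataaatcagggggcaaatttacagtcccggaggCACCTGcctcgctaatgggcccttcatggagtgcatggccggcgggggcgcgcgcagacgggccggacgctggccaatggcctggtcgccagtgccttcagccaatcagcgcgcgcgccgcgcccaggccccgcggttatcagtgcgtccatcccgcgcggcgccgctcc
Nkx2-2, chr2:147186403-147186652, minus strand: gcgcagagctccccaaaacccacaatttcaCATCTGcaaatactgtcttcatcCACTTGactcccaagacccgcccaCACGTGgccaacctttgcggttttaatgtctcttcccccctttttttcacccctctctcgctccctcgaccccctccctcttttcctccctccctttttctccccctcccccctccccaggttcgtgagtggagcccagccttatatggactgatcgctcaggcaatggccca
Olig2, chr16:91225300-91225549, plus strand: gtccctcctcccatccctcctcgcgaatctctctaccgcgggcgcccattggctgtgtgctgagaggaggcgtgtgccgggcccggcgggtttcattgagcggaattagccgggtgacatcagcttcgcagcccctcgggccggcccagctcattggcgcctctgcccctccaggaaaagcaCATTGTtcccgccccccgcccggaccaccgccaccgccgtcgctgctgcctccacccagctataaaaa
Tcf7l2, chr19:55741560-55741809, plus strand: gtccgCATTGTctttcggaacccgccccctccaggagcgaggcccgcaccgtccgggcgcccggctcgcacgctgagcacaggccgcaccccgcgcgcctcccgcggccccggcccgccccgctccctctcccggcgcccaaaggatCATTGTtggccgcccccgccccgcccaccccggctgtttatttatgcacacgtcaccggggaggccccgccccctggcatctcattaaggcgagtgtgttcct
The Sox8 and Nkx6-2 windows each held 1 E-box and no SOX-type sequence, and the Nkx2-2 window held 3 E-boxes and no SOX-type sequence. The Olig2 window held no E-box and 1 ACAATG on the opposite strand, and the Tcf7l2 window shown held no E-box and 2 of them. A second annotated Tcf7l2 start, not shown, had 1 ACAAAG and neither of the others. Of the 32851 promoter windows of this length, 66.2% held an E-box, 10.7% held ACAATG and 16.5% held ACAAAG, so a single match is common. A match is a description of the letters and says nothing on binding in these mice.

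Signals are log2 values relative to the 75th percentile of each array, so 0 is a probe at that percentile. Levels of different probes depend on the probe and are not compared with each other. To be tested a probe had to be well above background throughout at least 1 group, and 13 of the 14 member probes were. The second Olig2 probe was well above background on 1 untreated array, 1 array of 2 weeks of CPZ, no array of 4 weeks and 1 array of regular diet, and was not tested. Differences are limma estimates, and a probe was called when its p, adjusted over all probes by Benjamini-Hochberg, was under 0.05 and its change at least 2-fold.

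At both times of CPZ most members had a negative estimate against untreated, but no member passed the test. The estimate was negative for 6 of the 8 genes at 2 weeks and for 7 of 8 at 4 weeks, with medians of −0.96 and −0.98 on the log2 scale against 0.03 and −0.03 over all probes. With array weights, which count arrays that fit poorly for less, the 2-week median was −0.29 and that over both times −0.52 in place of −0.90. In the main analysis Sox8 and Nkx6-2 had the largest negative estimates, Olig1 and Sox10 lay in between, and Tcf7l2 lay near 0. At 2 weeks limma called 0 of the 13 member probes, with 0.193% of all probes called, and 3 member probes had an unadjusted p under 0.05, as did 9.35% of all probes. At 4 weeks it called 0 of 13 with 0.164% of all probes called, and 4 had an unadjusted p under 0.05, as did 10.1% of all probes. The test named in the study's methods, as run here, called 0 member probes at either time, but it also called 0 of all probes at both. The paper reports differentially expressed genes at both times, so this run did not reproduce its counts and cannot decide on the members. Over both CPZ times, 0 of 13 were called with 0.782% of all probes called, and 5 had an unadjusted p under 0.05, as did 9.52% of all probes. In tissue RNA of this kind, fewer cells of a type and less RNA per cell cannot be told apart.

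For some member probes the arrays of the groups did not overlap. Every array of 2 weeks of CPZ lay below every untreated array for 6 of the 13 member probes, which held for 9.02% of all probes. The dimmer Myrf probe is 1 of these 6 and had passed the background filter only through the untreated group, so its lower CPZ signal follows in part from the filter. At 4 weeks this held for 3 of 13 against 4.74% of all probes, and for all 7 CPZ arrays together for 1 of 13, a Sox8 probe, against 2.77%. Member probes share cells and arrays, so these counts are a description with no test.

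**Figure D1:**
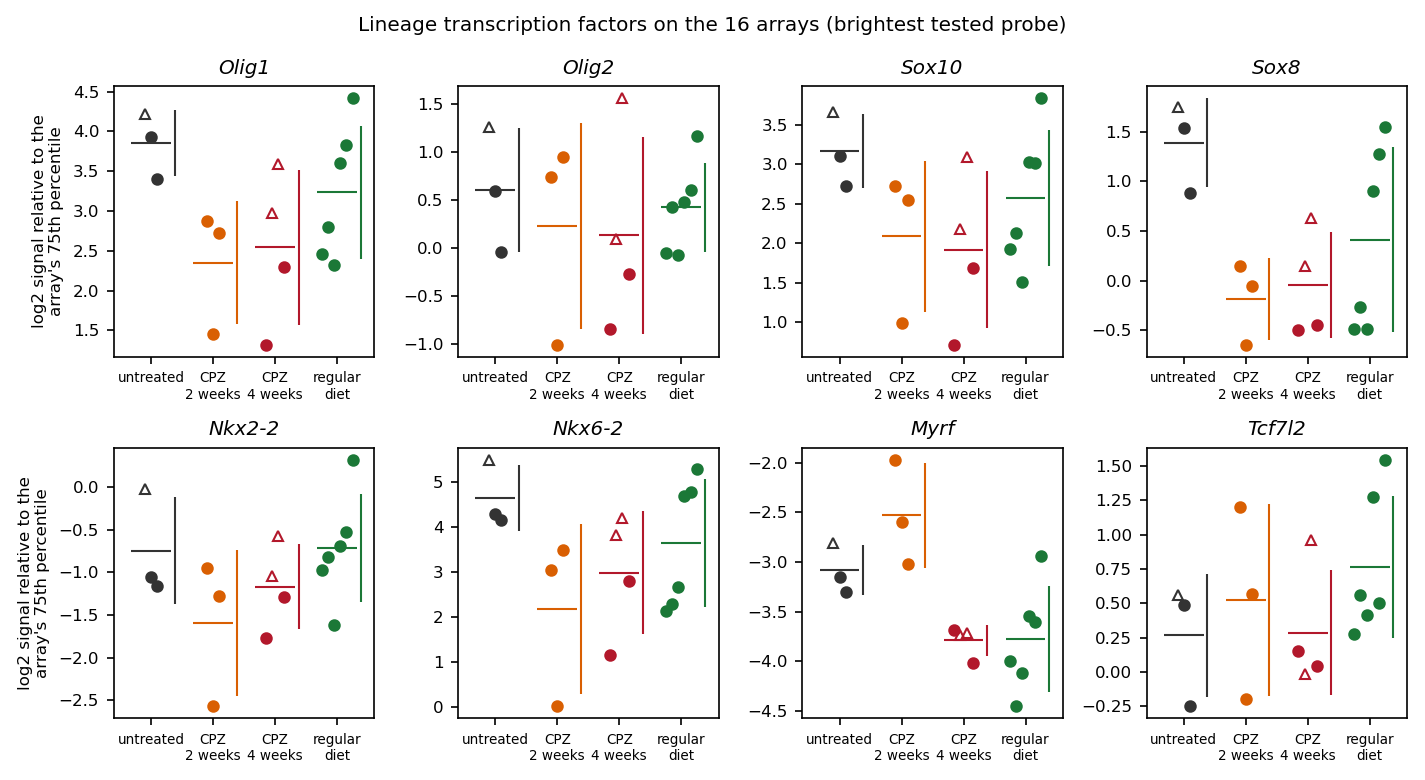
Log2 signal, with 0 at each array's 75th percentile, of the brightest tested probe of the 8 genes, with 1 point per array, the group mean as a horizontal bar and the SD as a vertical bar. Open triangles are the 3 arrays that stood apart. Sox8 is the gene in which all 7 CPZ arrays lie below the 3 untreated arrays, and in the regular diet group Sox8 and Nkx6-2 each have 3 arrays below and 3 arrays within the untreated range or close to it.

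Olig1, the factor linked to maturation and repair, had log2 signals of 4.22, 3.93 and 3.41 on the untreated arrays. At 2 weeks of CPZ it had 2.87, 1.46 and 2.72, all below the untreated arrays, and at 4 weeks it had 1.32, 2.98, 3.59 and 2.29, of which the third array overlapped the untreated range. On regular diet the lowest, median and highest of the 6 arrays were 2.32, 3.20 and 4.42. The difference from untreated was −1.50 ± 0.58 (SE, 3 against 3 arrays, adjusted p = 0.415) at 2 weeks and −1.31 ± 0.54 (4 against 3 arrays, adjusted p = 0.444) at 4 weeks, neither of which passed. Without the 3 arrays that stood apart the 4-week value was −1.86 (adjusted p = 0.111).

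Olig2, which marks the lineage from precursor to mature cell, varied more between arrays of a group than between groups. Its brighter probe had 1.25, 0.59 and −0.04 on the untreated arrays, 0.73, −1.004 and 0.94 at 2 weeks and −0.84, 0.09, 1.55 and −0.27 at 4 weeks. The groups overlapped, and array 3 of 4 weeks was higher than every untreated array. The differences were −0.38 (95% interval −1.93 to 1.17) at 2 weeks and −0.47 (−1.92 to 0.98) at 4 weeks. They were −0.05 and −0.84 without the 3 arrays that stood apart. With the slide as a fixed block the 4-week value became 0.18. The 2-week value became 0.70 with array weights and 0.24 without array 2 of that group, so neither sign was settled.

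Sox10, the activator of myelin genes, was measured by 2 probes that ran in parallel. The brighter probe had 3.66, 3.11 and 2.73 on the untreated arrays, 2.72, 0.99 and 2.55 at 2 weeks and 0.72, 2.18, 3.09 and 1.69 at 4 weeks. The 2-week arrays lay below the untreated range, the highest of them only just, and 1 array at 4 weeks lay inside it. The 2 probes gave −1.08 and −1.16 at 2 weeks (adjusted p = 0.755 and 0.662) and −1.25 and −1.21 at 4 weeks (adjusted p = 0.538 and 0.528). Both probes gave −1.71 at 4 weeks without the 3 arrays that stood apart, with adjusted p of 0.163 and 0.159. The 2-week value of the brighter probe rested in part on array 2, without which it was −0.53.

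Sox8, the SoxE relative of Sox10, came closest to the threshold among the members. Its brighter probe, A_52_P269672, had 1.75, 1.53 and 0.89 on the untreated arrays. At 2 weeks it had 0.15, −0.64 and −0.06 and at 4 weeks −0.49, 0.14, 0.63 and −0.45, so that the 7 CPZ arrays lay below every untreated array. The difference was −1.57 ± 0.37 at 2 weeks (adjusted p = 0.125), −1.43 ± 0.34 at 4 weeks (adjusted p = 0.129) and −1.50 ± 0.31 over both times, a 2.83-fold lower signal (adjusted p = 0.0702). None of these passed. With the slide as a random block the value over both times was −1.46 and was called (adjusted p = 0.0295), and with the slide as a fixed block it was −1.42 and was called (adjusted p = 0.0348). These blocks also raised the calls over all probes, from 215 to 603 and 570. Within slides, the difference from the slide's untreated array was −1.70 for the 2-week arrays of slide 1, and −0.90 and −1.38 for the 4-week arrays of slides 2 and 3. Slide 4 held no untreated array. The untreated array of slide 1 and the 4-week array of slide 2 are among the 3 that stood apart.

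The dimmer Sox8 probe, A_52_P269667, did not follow the brighter one on the 3 arrays that stood apart. On these arrays the 2 probes differed by 2.37 to 2.95, and on the other 13 arrays by −0.12 to 0.77. The dimmer probe had −0.65, 1.51 and 0.89 on the untreated arrays, 0.02, −0.52 and −0.34 at 2 weeks and −1.05, −2.23, −2.32 and −1.21 at 4 weeks. Its lowest untreated value came from an array that stood apart, as did its 2 lowest values at 4 weeks. The difference was −0.87 (adjusted p = 0.807) at 2 weeks and −2.29 (adjusted p = 0.112) at 4 weeks. The dimmer probe without the 3 arrays gave −1.48 at 2 weeks (adjusted p = 0.0857). It was called at 4 weeks with −2.34 (adjusted p = 0.0350) and over both times with −1.91 (adjusted p = 0.0321). This setting drops 1 of the 3 untreated and 2 of the 4 arrays of 4 weeks, and was chosen after seeing the data. The calls over all probes went from 53 to 38 at 2 weeks and from 45 to 281 at 4 weeks. Over both times they went from 215 to 310. Against the untreated array of slide 1, which stood apart, the dimmer probe gave 0.67 and 0.31 on the 2-week arrays. These values were opposite in sign to those of the brighter probe. A slide block did not give a call for the dimmer probe over both times, whether fixed (−1.33, adjusted p = 0.379) or random (−1.50, adjusted p = 0.168). Without the 3 arrays the brighter probe gave −1.54 over both times (adjusted p = 0.0576).

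**Figure D2:**
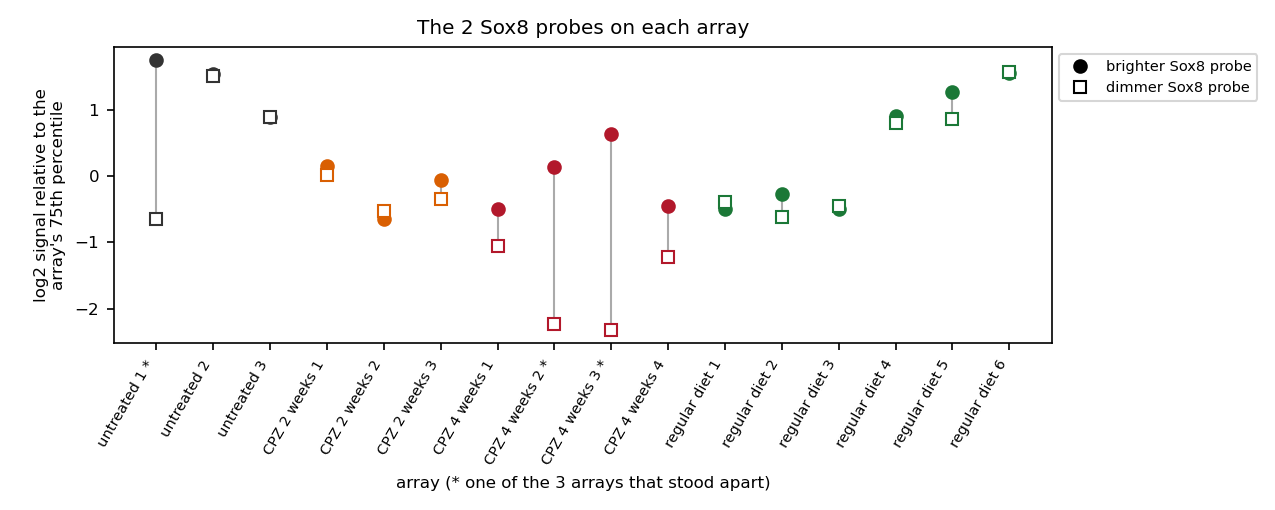
Log2 signal, with 0 at each array's 75th percentile, of the brighter (filled circles) and the dimmer (open squares) Sox8 probe on each of the 16 arrays, joined by a line for each array. The gap is 2.37 to 2.95 on the 3 arrays with an asterisk and at most 0.77 on the others.

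In the main analysis Nkx6-2, a homeodomain factor of myelinating oligodendrocytes, had the most negative estimate of the genes' brightest probes at both times. Its arrays spread widely. It had 5.49, 4.30 and 4.16 on the untreated arrays. At 2 weeks it had 3.05, 0.02 and 3.49, all lower, and at 4 weeks 1.15, 3.81, 4.19 and 2.79, of which array 3 lay inside the untreated range. The difference was −2.46 (95% interval −4.73 to −0.19, adjusted p = 0.468) at 2 weeks and −1.66 (−3.79 to 0.46, adjusted p = 0.644) at 4 weeks. Array 2 of 2 weeks lay far below the other 2 arrays of its group, and without it the 2-week value was −1.38. The values without the 3 arrays that stood apart were −2.04 at 2 weeks and −2.26 at 4 weeks. With the slide as a fixed block Nkx6-2 gave −3.20 at 2 weeks. At 4 weeks this block gave −0.90, less negative than Sox8 (−1.16) and Olig1 (−0.97).

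Nkx2-2, a homeodomain factor of precursors and early differentiating cells, had −0.02, −1.06 and −1.16 on the untreated arrays. At 2 weeks it had −0.95, −2.57 and −1.27 and at 4 weeks −1.77, −1.04, −0.57 and −1.29. The groups overlapped at both times, and the differences were −0.85 (adjusted p = 0.745) and −0.42 (adjusted p = 0.849). With the slide as a fixed block the 4-week value became 0.033, so its sign was not settled. The 2-week value was −0.36 without array 2 of that group and −0.49 without the 3 arrays that stood apart.

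Myrf, the switch of terminal differentiation, was measured by 2 dim probes that did not run alike. The brighter, A_52_P245316, had −2.80, −3.15 and −3.30 on the untreated arrays and −1.97, −2.59 and −3.02 at 2 weeks, with 2 of these 3 above every untreated array. At 4 weeks it had −3.68, −3.74, −3.72 and −4.02, all below the untreated arrays. The estimates were 0.55 (adjusted p = 0.632) at 2 weeks and −0.71 (adjusted p = 0.357) at 4 weeks. The other probe, A_52_P430829, was well above background on all 3 untreated arrays and on no array of 2 weeks, where it was at least 1.82-fold lower than untreated (log2 means −3.78 and −5.17, adjusted p = 0.669). At 4 weeks it was well above background on 2 of 4 arrays, both of them arrays that stood apart, and the estimate was −1.18 (adjusted p = 0.649). Without those 2 arrays no 4-week array is above background, so no value is given without them. The 2 probes thus gave opposite signs at 2 weeks. The other probe passed the filter only through the untreated group, so its negative sign follows in part from the filter. The mean of both gave −0.42 and is not read as a value for Myrf for the same reason.

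Tcf7l2, the Wnt effector, had estimates near or above 0 on CPZ. Its brightest probe had 0.56, 0.49 and −0.25 on the untreated arrays, 1.20, −0.19 and 0.57 at 2 weeks and 0.15, −0.01, 0.96 and 0.04 at 4 weeks. The estimates of its 3 probes ran from 0.26 to 0.46 at 2 weeks, and at 4 weeks from −0.0026 to 0.16. The 95% interval of the brightest probe was −0.66 to 1.18 at 2 weeks and −0.84 to 0.88 at 4 weeks, which at 2 weeks includes a 2-fold rise.

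**Figure D3:**
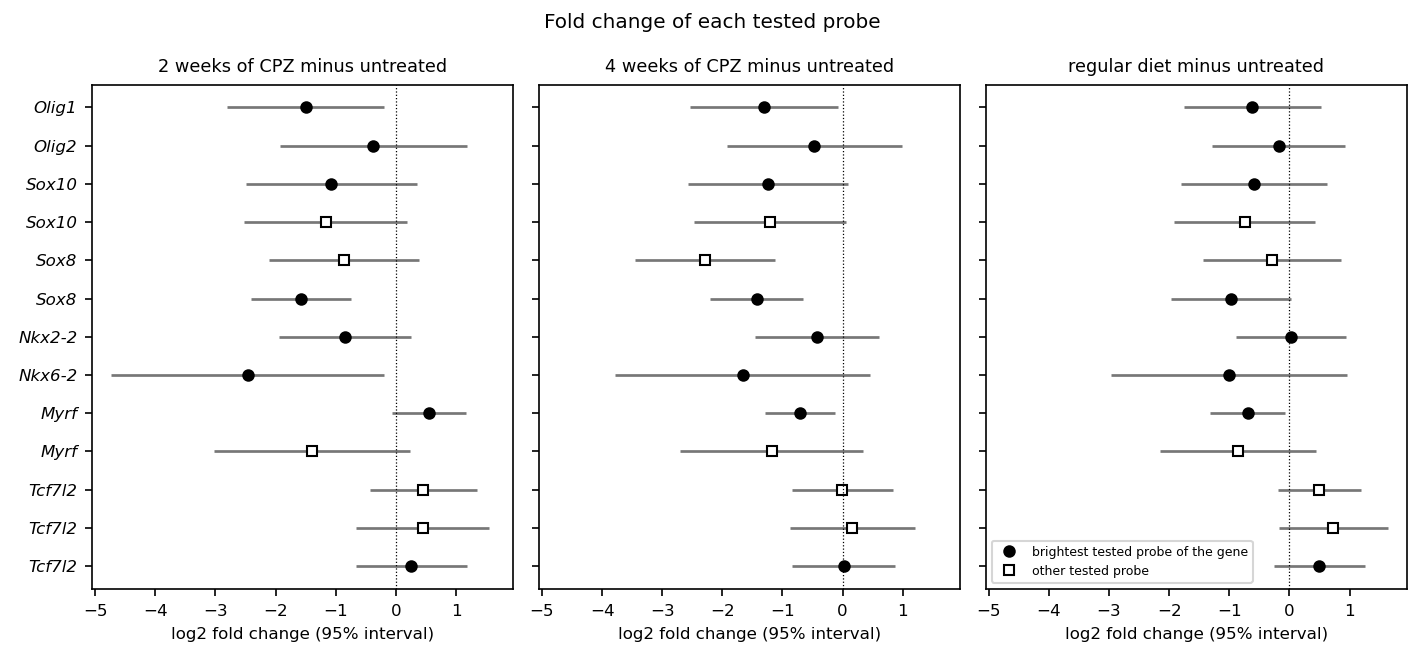
Log2 fold change against untreated with its 95% interval for the 13 tested member probes at 2 weeks of CPZ, 4 weeks of CPZ and on regular diet (filled circles, brightest tested probe of the gene; open squares, other probes). The intervals of both Sox8 probes lie below 0 at 4 weeks, and the 3 Tcf7l2 probes lie around 0 on CPZ. The 2 Myrf probes lie on opposite sides of 0 at 2 weeks, where the dimmer one was well above background on no array. No probe passed the adjusted threshold.

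Between 2 and 4 weeks of CPZ the estimates of the members were split in sign, with 4 of 8 negative. The median difference of 4 weeks minus 2 weeks was 0.02 for the 8 genes and −0.01 over all probes. The median of the 8 genes was −0.49, with 7 of 8 negative, without the 3 arrays that stood apart, of which 2 are 4-week arrays. A fixed slide block turned it the other way, to 0.67 with 7 of 8 positive, so the direction between the CPZ times was not settled. Of the 13 probes 0 were called, with 0.0109% of all probes called, and 2 had an unadjusted p under 0.05, as did 10.6% of all probes. These were the brighter Myrf probe, with −1.26 ± 0.26 (adjusted p = 0.218), and the dimmer Sox8 probe, with −1.42 ± 0.52 (adjusted p = 0.442). For the other Myrf probe no difference is given, since it was not well above background on any 2-week array. Without the 3 arrays that stood apart the values were −1.32 (adjusted p = 0.115) for the brighter Myrf probe and −0.85 (adjusted p = 0.170) for the dimmer Sox8 probe.

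On regular diet after CPZ the 6 arrays spread widely for most members. The median difference from the untreated mean over the 8 genes was −1.08, −1.05 and −1.29 on arrays 1, 2 and 3 and −0.14, −0.01 and 0.60 on arrays 4, 5 and 6. Nkx6-2 showed the spread most clearly, with −2.51, −2.36 and −1.98 on the former and 0.04, 0.13 and 0.63 on the latter. The brighter Sox8 probe had −1.88, −1.65 and −1.88 and then −0.48, −0.11 and 0.16. Because the labels do not give the time of each array, these arrays were not split for a test, and whether the spread follows time on regular diet was not tested.

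Against untreated the 6 arrays gave a median of −0.61 for the 8 genes and −0.03 over all probes. Without untreated array 1, the array of these groups that stood apart, the median of the 8 genes was −0.39 and Nkx6-2 gave −0.59. It was −1.06 with the replicate number as a block and 0.026 with array weights, so its sign was not settled. Of the 13 probes 0 were called, with 0.799% of all probes called, and 1 had an unadjusted p under 0.05, as did 10.7% of all probes. That probe was the brighter Myrf probe, with −0.69 ± 0.29 (adjusted p = 0.418), and 5 of its 6 arrays lay below every untreated array. The other Myrf probe was tested through the untreated group alone and was well above background on 3 of the 6 arrays. It gave −0.86 (adjusted p = 0.590), a lower value that follows in part from the filter. For no member probe did all 6 arrays lie below the untreated ones, which was the case for 3.86% of all probes. Tcf7l2 had positive estimates for all 3 probes, from 0.50 to 0.73, with adjusted p of 0.542 to 0.595. Of the 6 arrays, 2 lay above every untreated array for its brightest probe and for 1 other, and 5 did for the remaining probe.

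Against 4 weeks of CPZ the estimates on regular diet were positive for all 13 probes, of which the dimmer Myrf probe was well above background on only 3 of 6 and 2 of 4 arrays, and the median over the 8 genes was 0.47 against 0.01 over all probes. The median fell to 0.17 with median scaling and to 0.10 with the replicate number as a block. A fixed slide block lowered it to 0.22 and gave −0.035 for Olig2 and −0.074 for the brighter Myrf probe. Of the 13 probes 0 were called, with 0.0036% of all probes called, and 1 had an unadjusted p under 0.05, as did 24.7% of all probes. This was the dimmer Sox8 probe, with 2.00 ± 0.49 (adjusted p = 0.0837), whose 4-week group holds 2 of the arrays that stood apart. The brighter Sox8 probe gave 0.46 (adjusted p = 0.512). Without the 3 arrays the values were 1.43 (adjusted p = 0.0999) and 0.88 (adjusted p = 0.304), and the median over the 8 genes was 0.93.

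By their brightest probes, the level of Olig1, Olig2, Sox10, Sox8 and Nkx6-2 was highest in the untreated mice. Regular diet came next, with both CPZ groups below. The order was not settled for Olig2. Its regular diet estimate against untreated became 0.38 with array weights, 0.035 with a fixed slide block and 0.14 without the 3 arrays. With array weights the regular diet estimate of Nkx6-2 was also above 0, at 0.056. For Sox10 the mean was 3.17 ± 0.47 (SD, n = 3) in untreated mice, 2.57 ± 0.86 (n = 6) on regular diet, 2.09 ± 0.95 (n = 3) at 2 weeks and 1.92 ± 0.99 (n = 4) at 4 weeks. For Nkx6-2 the means in the same order were 4.65 ± 0.73, 3.64 ± 1.42, 2.19 ± 1.89 and 2.98 ± 1.36. For both genes the mean ± SD of neighbouring groups overlapped. Nkx2-2, Myrf and Tcf7l2 had another order. The regular diet mean was the highest of the 4 groups for Tcf7l2 and, at −0.72 against −0.75 in untreated mice, by less than the spread for Nkx2-2, and the 2-week mean was the highest for Myrf. The other Myrf probe was too close to background for an order of its CPZ means.

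The genes of the same lineage that these factors act on or alongside were read from lists. Of 18 myelin and mature oligodendrocyte genes with a tested probe, all 18 had a negative estimate at 2 weeks (median −3.13) and at 4 weeks (median −2.51), and 0 were called at either time. Over both CPZ times 3 of the 18 had a called probe, with 0.782% of all probes called. All 3 were lower, and 2 of them were called by their brightest probe. Among them was Mal, a proteolipid of compact myelin, with −3.71 ± 0.64 (adjusted p = 0.0412) for its brightest probe and −3.77 ± 0.69 (adjusted p = 0.0473) for the other. Aspa, the aspartoacylase of oligodendrocytes, was called by its dimmer probe with −2.35 ± 0.35 (adjusted p = 0.0298), while its brightest gave −3.24 ± 0.62 (adjusted p = 0.0551). Without the 3 arrays that stood apart 1 of the 18 was called, and the calls over all probes for both times were 310 against 215. Mbp, which encodes myelin basic protein, gave −3.21 (adjusted p = 0.220) at 2 weeks.

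The 12 genes of precursors and premyelinating cells had medians of −0.39 at 2 weeks and −0.32 at 4 weeks, and 0 were called. Bcas1, which marks premyelinating cells, gave −1.97 (adjusted p = 0.423) and −0.90 (adjusted p = 0.786). Gpr17, a receptor of the same stage, gave −0.26 and −0.85, and Ptprz1, a phosphatase of precursors, 0.05 and 0.42. The 14 tested genes among other precursor-stage factors and brakes on differentiation had medians of −0.31 and −0.12, with 0 called. In this list Id2, an inhibitor of helix-loop-helix factors, gave −0.36 and −0.19, and the nuclear factors Nfib and Nfia gave −0.23 and −0.34 at 2 weeks and 0.07 and −0.11 at 4 weeks. Olig3, a relative of Olig1 and Olig2, had no array on which its probe was well above background.

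Among the lists of lineage genes and their partners, the 10 tested chromatin partners and cofactors lay closest to all probes, with medians of −0.09 and −0.05 and 0 called. Smarca4, the remodelling ATPase that Olig2 recruits, gave −0.11 at 2 weeks and 0.21 at 4 weeks. Chd8, another remodeller, gave −0.03 and −0.02, and Zeb2, a zinc finger factor needed for myelination, gave −0.85 (adjusted p = 0.183) and −0.28 (adjusted p = 0.780). The median of the 8 lineage factors thus lay between those of the precursor genes and the myelin genes at both times, a position for which no test was made.

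**Figure D4:**
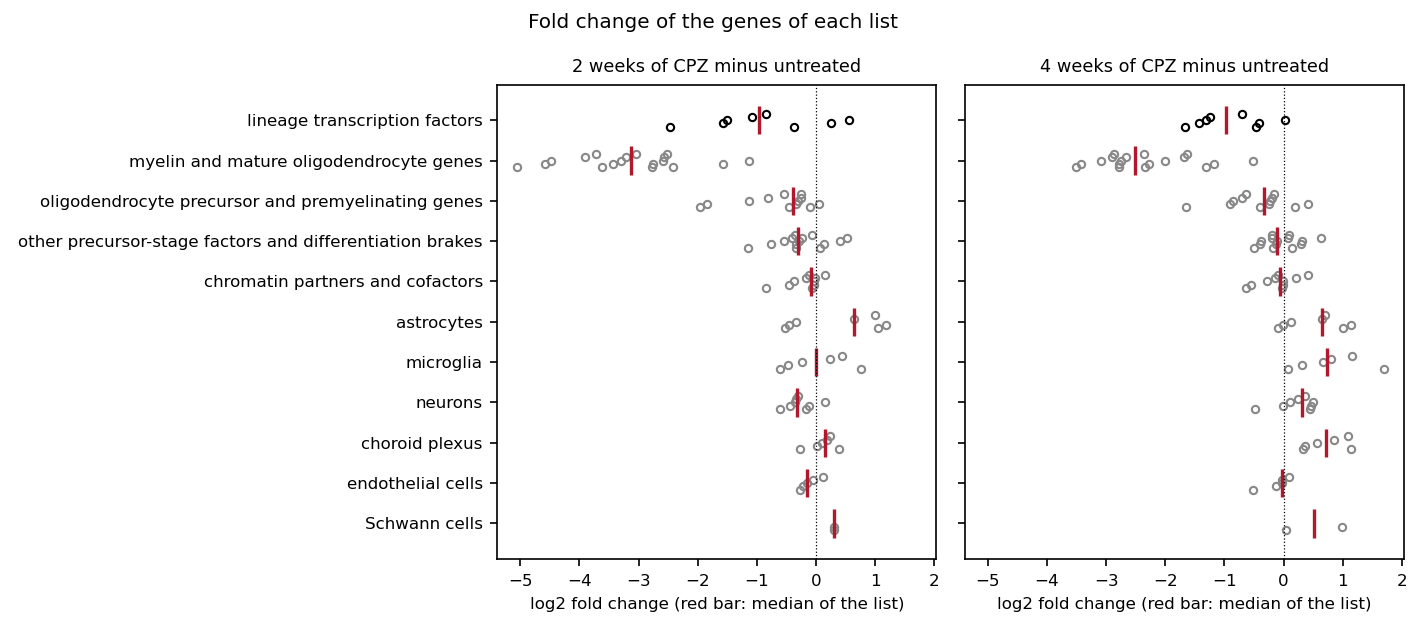
Log2 fold change against untreated at 2 and at 4 weeks of CPZ of each gene of the lists, by its brightest tested probe, with the median of each list as a red bar. The medians at 2 weeks are −3.13 for the myelin genes, −0.96 for the lineage transcription factors and −0.39 for the precursor genes.

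Markers of other cell types were read on the same arrays, and their part in the results was not tested. The labelled tissue showed its defining markers, since all 18 myelin genes with a probe were well above background on every untreated array. Of the astrocyte markers, all 7 were well above background on every array, with medians of 0.63 and 0.65 at 2 and 4 weeks and a summed level, relative to the 75th percentile, of 107 to 152 in untreated mice, 107 to 151 at 2 weeks, 105 to 181 at 4 weeks and 110.5 to 149 on regular diet. The 6 microglial markers with a probe had medians of −0.01 and 0.74, and their summed level was 10.2 to 19.3 in untreated mice, 10.4 to 21.1 at 2 weeks, 20.4 to 33.6 at 4 weeks and 19.7 to 151 on regular diet. The 8 neuronal markers summed to 121 to 182 in untreated mice, 69.3 to 201 at 2 weeks, 119 to 252 at 4 weeks and 78.3 to 162 on regular diet. None of the genes of these lists was called at 2 or 4 weeks.

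The 6 choroid plexus markers varied most between arrays of 1 group, with summed levels of 2.37 to 12.4 in untreated mice, 2.25 to 14.1 at 2 weeks, 1.00 to 48.7 at 4 weeks and 1.05 to 39.3 on regular diet. The 5 endothelial markers summed to 12.2 to 24.2 in untreated mice, 12.3 to 15.3 at 2 weeks and 10.8 to 22.7 at 4 weeks. Of the 4 Schwann cell markers, genes of the myelinating cells of peripheral nerve, 2 were well above background on every array of the untreated and of each CPZ group, and the sum was 2.44 to 4.09 in untreated mice, 2.83 to 6.02 at 2 weeks and 2.66 to 4.16 at 4 weeks.

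On single arrays the lineage factors and the myelin genes were low together on some arrays and not on others. Array 2 of 2 weeks and array 1 of 4 weeks had the lowest medians of both, −1.93 and −1.66 for the factors and −4.70 and −4.23 for the myelin genes. Array 1 of 2 weeks and array 3 of 4 weeks had factor medians of −0.32 and −0.17, inside the untreated range of −0.47 to 0.43, with myelin medians of −1.82 and −1.55. On regular diet the myelin median was −3.35, −3.29 and −2.80 on arrays 1 to 3 and −0.07, 0.02 and 0.65 on arrays 4 to 6. The microglial median was 3.20 and 3.42 on regular diet arrays 1 and 2 and 0.24 to 0.47 on the other 4, so array 3 had low lineage factors without the microglial signal of arrays 1 and 2.

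**Figure D5:**
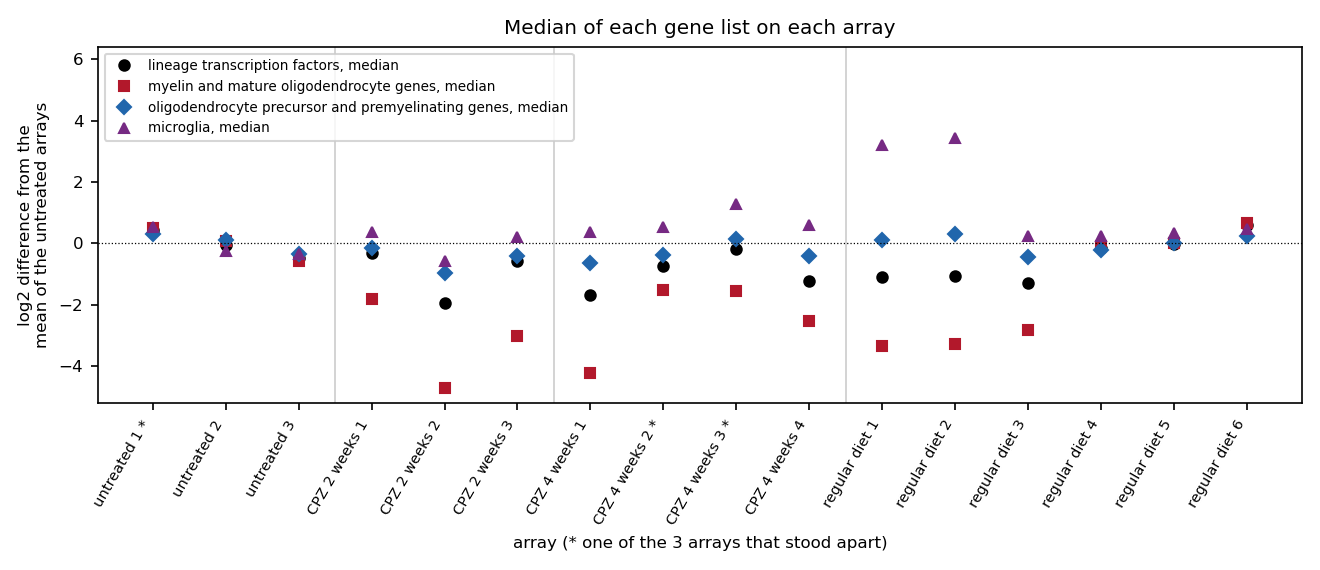
Median log2 difference from the mean of the untreated arrays on each of the 16 arrays for the lineage transcription factors, the myelin genes, the precursor genes and the microglial markers. Arrays 1 to 3 on regular diet have factor medians of −1.08, −1.05 and −1.29 and arrays 4 to 6 of −0.14, −0.01 and 0.60, and the microglial medians are high on arrays 1 and 2 of regular diet.

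As a description of likeness, the pattern of each gene's brightest probe over the 16 arrays was set against those of 13938 other named genes. The arrays share the group differences and the slides, so high values are common. Among the members Olig1 and Sox10 were most alike (Pearson r = 0.98), while the brighter Myrf probe had r of at most 0.33 with any other member. The other Myrf probe did not run alike and was not compared, so the low value holds for the brighter probe only. The genes nearest to Nkx6-2 were B3gnt9 (0.99), Trim59 (0.98) and Serpinb1a (0.97), and Trim59 was also among the 3 nearest to Olig1, with Prkcq and Slc12a2 (0.98 each for these 3). Among the 3 nearest to Sox10 were Insc and Map4k4 (0.97 each), and nearest to Sox8 were Tprn, Rcbtb1 and Pacs2 (0.98 each). Olig2 was nearest to Cln8, Kcnk13 and Tmem19 (0.95 to 0.96) and Nkx2-2 to Lap3, Tceanc and Zdhhc12 (0.93 to 0.96). Myrf and Tcf7l2 had looser neighbours, Ubr2, Wnt6 and Bbip1 for Myrf (0.84 to 0.85) and Ttc25, Ifi27 and Nek5 for Tcf7l2 (0.88 to 0.91).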

How the data were processed

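The 16 single-colour arrays of corpus callosum RNA lay on 4 slides. The authors deposited the spot intensity written by Agilent Feature Extraction (11.0.1.1 per the file headers), background-subtracted but not scaled between arrays. A second deposited table holds GeneSpring log2 values, set to the 75th percentile and to the untreated median. Their methods name an earlier Feature Extraction version. Control and outlier spots were left out, spots of a probe were averaged, and each array's 75th percentile was taken off on the log2 scale, with no pseudocount. Of 41174 probes, 27484 matched a gene name in a RefSeq table on GRCm38.p6. In R 4.3.3 with limma 3.58.1, the CPZ comparisons used 1 fit of 10 arrays (27505 probes, 7 residual degrees of freedom, median residual SD 0.398) and the regular diet comparisons 1 fit of 16 arrays (27785 probes, 12 residual degrees of freedom). The scripts were tested on simulated data. In medians, the brightest tested probe stands for a gene. For a bound, the dim group's value on each array was the probe's own signal or, where higher, the array's lowest signal among probes well above background. The number of arrays limits the precision.

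The genes named are every member, up to 4 called genes of each list or, where none was called, its 3 brightest, and the 3 genes nearest to each member; some of these genes are not reported here. Bounds aside, values are limma estimates. The members and the lists were chosen with earlier results of these data known. Alternatives were other scalings, filters, blocks, array weights, the authors' table, the recorded assignment, the methods' ANOVA and leaving out arrays.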

Additional observations from a re-analysis of the deposited data

Results flagged for a closer look

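In the groups of 4 and 6 arrays, the gap between the highest or lowest array and the rest was checked for all 14 member probes, 28 groups in all, of which chance sets apart about 1 in 20. The dim Olig2 probe, which was not tested, had its highest 4-week array at −4.63, while the other 3 lay between −6.31 and −6.08, and no array of this group was well above background. The brighter Myrf probe had its lowest 4-week array at −4.02, while the other 3 lay between −3.74 and −3.68. The former was array 3 of 4 weeks, which is among the 3 that stood apart, and the latter was array 4, which is not.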

How the results depend on the processing

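No member was called in the main analysis, and Sox8 was the member that most often passed under an alternative. The brighter Sox8 probe over both CPZ times, a single member probe called, passed with a background correction by normexp, with a filter on every array and with the slide as a fixed or a random block, settings that called 179, 284, 570 and 603 of all probes against 215. Without the 3 arrays that stood apart the dimmer Sox8 probe was the single probe called, 1 at 4 weeks and 1 over both times, and with the mean of a gene's probes Sox8 was the single gene called, again 1 at 4 weeks and 1 over both times (of 29 and 167 calls over all genes and unnamed probes). Without the 3 arrays the calls over all probes were 281 at 4 weeks and 310 over both times, against 45 and 215. Array weights called 2 member probes at 2 weeks, 6 at 4 weeks and 4 over both times. They called 2 between the CPZ times and 1 between regular diet and 4 weeks. In the same order they called 1755, 1903, 1448, 2486 and 1572 of all probes, against 53, 45, 215, 3 and 1. Median scaling also called 1 member probe between regular diet and 4 weeks, with 1273 of all probes called against 1. Beside Sox8, array weights called Olig1 (−1.29, adjusted p = 0.0157), both Sox10 probes and the dimmer Myrf probe at 4 weeks. That Myrf probe passed the filter only through the untreated group, so its lower 4-week value follows in part from the filter. Over both times array weights called Olig1 and the dimmer Sox10 probe, and between the CPZ times Olig2. The other call between the CPZ times, the dimmer Myrf probe, is not read because it was at background on every 2-week array. Leaving out each array in turn gave 0 to 1 member probes called between regular diet and 4 weeks (1 without untreated array 1 and 1 without 4-week array 1) and 0 in the other comparisons.

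With the recorded assignment no probe of the array was called, and the member median was 0.42 at 2 weeks, −0.19 at 4 weeks, 0.10 over both times and −0.998 for regular diet against 4 weeks. At 2 weeks it then gave 0.60 for Olig1, 0.087 for Olig2, 0.34 for Sox10, 0.42 and 0.34 for Sox8, 0.43 for Nkx2-2, 0.71 for Nkx6-2 and −0.80 for Myrf. At 4 weeks it gave 0.22 for Olig1, 0.24 and 0.98 for Sox8 and −0.45 for Tcf7l2. Over both times it gave 0.41 for Olig1, 0.051 for Sox10, 0.33 and 0.66 for Sox8, 0.14 for Nkx2-2 and 0.29 for Nkx6-2. For regular diet against untreated it gave −0.79 for Nkx2-2 and −0.66 for Tcf7l2.

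Some single values changed sign under other settings. Olig2 became 0.70 at 2 weeks, 0.13 over both times and 0.38 on regular diet with array weights, 0.18 at 4 weeks and 0.035 on regular diet with the slide as a fixed block, and 0.14 on regular diet without the 3 arrays. Myrf at 2 weeks became −0.040 with normexp and −0.42 with the mean of its probes, and 0.032 over both times without the 3 arrays. The value of −0.42 rests in part on a probe that was at background on every 2-week array, and is not read. Tcf7l2 at 4 weeks became −0.012 with normexp and −0.022 without the 3 arrays. Nkx2-2 became 0.033 at 4 weeks with the slide as a fixed block, and −0.15 and −0.045 on regular diet with median scaling and normexp. Nkx6-2 on regular diet became 0.056 with array weights. Leaving out each array in turn gave −0.079 to 0.62, −0.24 to 0.17 and −0.12 to 0.32 for Tcf7l2 at 2 weeks, 4 weeks and both, −0.74 to 0.24 for Olig2 at 2 weeks and −0.50 to 0.14 on regular diet, −0.22 to 0.063 for Myrf over both times, −1.28 to −0.45 for the median of the 8 genes at 2 weeks, and −0.91 to 0.17 for the dimmer Sox8 probe and −0.18 to 0.39 for Nkx2-2 on regular diet. The cause of these changes was not tested.

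The deviations of same-numbered arrays of the untreated and CPZ groups correlated at −0.81 to 0.21, which gave no sign that the replicate numbers pair samples. The strongly negative values were all between untreated and 4 weeks, the groups that hold the 3 arrays that stood apart. The check therefore cannot settle whether the numbers pair samples, and regular diet arrays were not part of it. With the replicate block no member was called, the brighter Sox8 probe gave −1.43 over both times, Nkx2-2 on regular diet became −0.31, and 0, 0 and 2 of all probes were called at 2 weeks, 4 weeks and both, against 53, 45 and 215. Over the alternatives that kept all arrays, the calls over all probes ranged from 0 to 1755 at 2 weeks, 0 to 1903 at 4 weeks and 0 to 1448 over both times, 0 to 2486 between the CPZ times, 13 to 1073 for regular diet against untreated apart from 0 with the recorded assignment, and 0 to 1572 for regular diet against 4 weeks. Leaving out each array in turn, they ranged from 8 to 75, 0 to 186, 2 to 337, 0 to 52, 5 to 240 and 0 to 1550 in the same order. The planned normexp correction on mean spot signals was not run, since the scanner files used here hold median signals, and the version on medians and the fit without 3 arrays were chosen after seeing the data. The small groups, the choice of array assignment, the mixed regular diet times and dim Myrf probes limit these results.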
